A study of Homo sapiens with 2 samples.

Results

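The 44 genes described here encode the hypoxia-inducible factors and their oxygen sensors, the glucose and lactate transporters, the enzymes of glycolysis and a set of genes that hypoxia is known to induce. They were chosen by gene symbol, and all 44 were found, each on 1 row, among the 58302 genes of the deposited table. The study measured polyadenylated RNA in Tu212 cells, an epithelial-derived squamous carcinoma line, to ask which transcripts differ when the arginine methyltransferase PRMT5 is overexpressed. The PRMT5 overexpression cells had received a pEZ plasmid encoding PRMT5, and the vector control cells the pEZ vector without it, each for 48 h. Each group was 1 library of 1 cell line, and no low-oxygen or glucose treatment is named in the labels. Reads counted on genes numbered 19908258 with PRMT5 overexpression and 14119997 in the vector control.

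Glycolysis turns glucose into pyruvate, which lactate dehydrogenase reduces to lactate or pyruvate dehydrogenase passes to the mitochondria. The hypoxia-inducible factors pair an oxygen-labile alpha subunit with the stable ARNT. In oxygen, EGLN prolyl hydroxylases mark the alpha subunit for the VHL ubiquitin ligase, so that its amount is set mainly at the protein level. Squamous carcinoma lines are known to run glycolysis at a high rate also in oxygen, and many glycolytic genes are direct targets of these factors.

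Because each group is a single library, no difference has a replicate check or a test, and each value describes the libraries and not the condition. Levels are counts scaled to 1e6 reads (CPM) after scaling by the trimmed mean of M values (TMM). The log2 ratio is that of PRMT5 overexpression over vector control. Its 95% interval covers counting error only, and no spread between replicate libraries. Reads are not independent molecules, so the interval can be too narrow even for that error. PRMT5 itself stood at 293 CPM in the PRMT5 overexpression library, against 145 CPM in the vector control, a log2 ratio of 1.01. All 13 epithelial and squamous markers were read in both libraries, at 12721 CPM in sum with PRMT5 overexpression and 11740.2 CPM in the control, led by the keratin KRT5. Among them 10 were above 0 and 3 below, and their median ratio on the log2 scale was 0.13. The 10 fibroblast markers summed to 82.2 CPM with PRMT5 overexpression and 99.4 CPM in the control, nearly all of it COL1A1, and 5 of the 6 past the read minimum were below 0. DCN had 0 reads with PRMT5 overexpression and 12 in the control, and FAP had 0 in both. The 5 endothelial markers summed to 4.46 CPM with PRMT5 overexpression and 5.96 CPM in the control. Most of this was VWF, with 69 reads with PRMT5 overexpression and 67 in the control, whereas CDH5 and KDR had 0 reads in both libraries. The 7 leukocyte markers summed to 17.2 CPM with PRMT5 overexpression and 21.9 CPM in the control, of which CD68 gave 16.2 CPM with PRMT5 overexpression and 20.1 CPM in the control. The part of these low signals in the results was not tested.

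Transcripts of the hypoxia and glycolysis genes were slightly less abundant in the PRMT5 overexpression library. Together the 44 genes took 2.54% of its reads, with an exact binomial (Clopper-Pearson) interval of 2.53% to 2.54%, against 2.81% in the vector control, with an interval of 2.80% to 2.82%. Their summed reads had a log2 ratio of -0.12 (interval -0.13 to -0.11). Of the 44 genes, 38 had a log2 ratio below 0, and 6 had one above 0. Over the 17777 genes that reached 10 reads in either library, the shares were 49.6% and 50.4%. The median over the 44 genes was -0.12, against 0.00 over those 17777 genes. In bulk RNA, fewer cells that express a gene and less RNA per cell cannot be told apart.

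The differences were small and not uniform. Only CA12 was lower by 1.5-fold or more, and 0 of the 44 genes were higher by that much, where 5.33% and 7.06% of the 17777 genes were. At 1.2-fold, 11 genes were lower and 3 were higher, against 15.4% and 17.2% of all genes. The counting interval lay wholly below 0 in 27 genes and wholly above 0 in 5, where 14.3% of all genes fell on each side. Each of the 44 genes had at least 98 reads in either library.

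**Figure D1:**
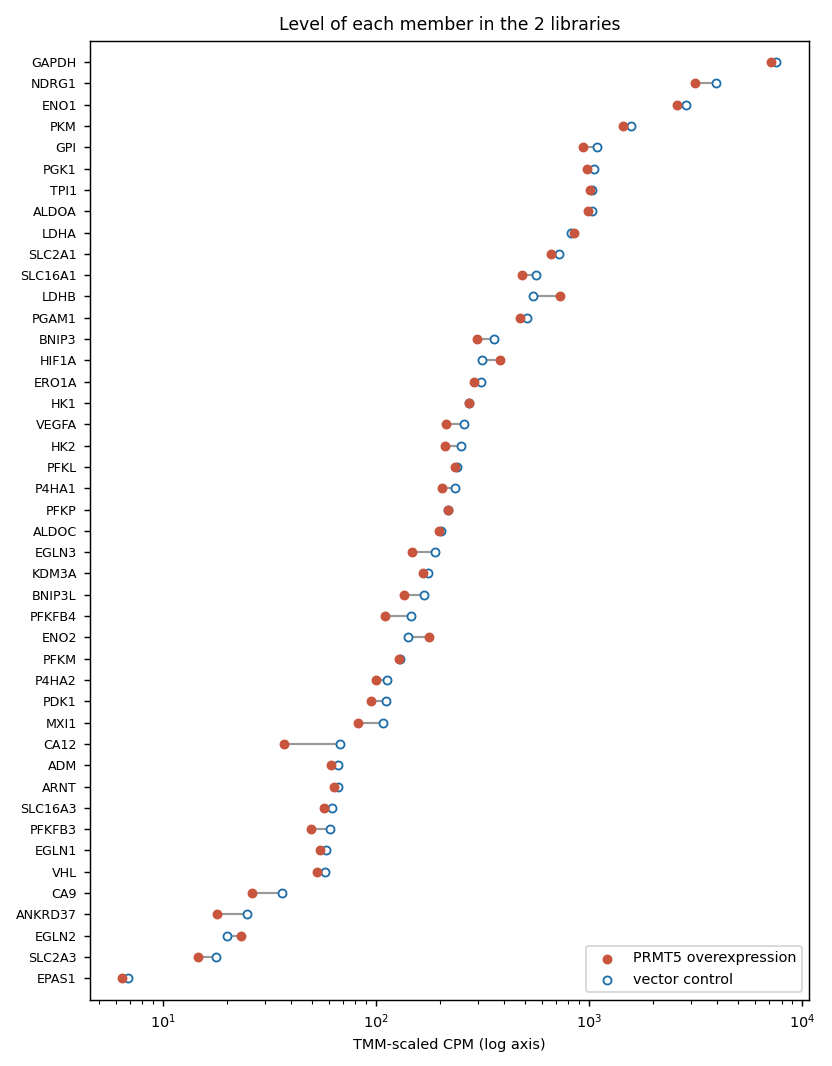
TMM-scaled CPM of each of the 44 genes on a log axis, with filled red points for the PRMT5 overexpression library and open blue points for the vector control, 1 library each. Levels ran between about 6.44 CPM for EPAS1 and 7164 CPM for GAPDH with PRMT5 overexpression, and the widest gaps were those of CA12, ANKRD37, CA9 and LDHB.

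The hypoxia-inducible factor genes and their regulators differed in direction. HIF1A, which encodes the alpha subunit that most cells use, lies at chr14:61695513-61748259 in GRCh38 and was read at 382 CPM in the PRMT5 overexpression library, against 314 CPM in the vector control, from 7522 reads with PRMT5 overexpression and 4480 in the control. It was thus higher by 1.21-fold in the PRMT5 overexpression library, at 0.28 on the log2 scale (interval 0.23 to 0.33). The antisense gene HIF1A-AS1 and AL137129.1 share exon bases with it, but together added only 59 reads with PRMT5 overexpression and 35 in the control and left the ratio at 0.28. EPAS1, the alpha subunit of the related factor HIF-2, had the lowest level of the 44 genes per kilobase of exon, and was at 6.44 CPM with PRMT5 overexpression and 6.87 CPM in the control. Its log2 ratio was -0.09 (interval -0.48 to 0.30), so a difference was not detectable at this depth. ARNT, the shared partner subunit, was at 63.5 CPM with PRMT5 overexpression and 66.3 CPM in the control. VHL, the substrate receptor of the ligase, was at 52.6 CPM with PRMT5 overexpression and 57.4 CPM in the control. The intervals of both genes held 0.

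Among the oxygen sensors, EGLN3, which hypoxia is known to induce, stood apart from its relatives. It gave 148 CPM in the PRMT5 overexpression library, against 190.2 CPM in the vector control, a log2 ratio of -0.36 (interval -0.44 to -0.29). The gene spans chr14:33924231-34462774. EGLN1, the main sensor of oxygen in most tissues, was at 54.5 CPM with PRMT5 overexpression and 58.4 CPM in the control, and its interval of -0.23 to 0.03 held 0. EGLN2 was at 23.2 CPM with PRMT5 overexpression and 19.99 CPM in the control, a log2 ratio of 0.22 (interval 0.00 to 0.44). It shares 2012 exon bases with the readthrough gene RAB4B-EGLN2, and summed with that gene its interval was -0.03 to 0.35 and held 0.

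All 4 transporter genes had log2 ratios below 0, where 49.6% of all genes did. SLC2A1, the main glucose carrier of squamous cells, was at 662 CPM in the PRMT5 overexpression library, against 722 CPM in the vector control, a log2 ratio of -0.12. SLC16A1, which carries lactate and pyruvate across the membrane, was at 486 CPM with PRMT5 overexpression and 564 CPM in the control, a log2 ratio of -0.21 (interval -0.26 to -0.17). These are the well-read members of their families. SLC2A3, a high-affinity glucose carrier, was at 14.6 CPM with PRMT5 overexpression and 17.7 CPM in the control, and its ratio of -0.28 had a wide interval of -0.53 to -0.03. SLC16A3, the lactate exporter of glycolytic cells, was at 57.1 CPM with PRMT5 overexpression and 61.9 CPM in the control. Its log2 ratio of -0.12 had an interval of -0.24 to 0.01 that held 0, so its direction is uncertain. CSNK1D shares 482 exon bases with it, and the log2 ratio of their sum was 0.01. Most reads of that sum were those of CSNK1D, 3141 with PRMT5 overexpression and 2189 in the control, against 1126 and 883 for SLC16A3.

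In the upper part of glycolysis the genes divided into those near 0 and a few that were lower in the PRMT5 overexpression library. HK1, the housekeeping hexokinase, gave 274 CPM in both libraries. HK2, the inducible hexokinase of many tumours, gave 212 CPM with PRMT5 overexpression and 250.5 CPM in the control, a log2 ratio of -0.24 (interval -0.31 to -0.18). The 3 phosphofructokinase genes, which encode the enzyme of the first committed step, were near 0. PFKL was at 234 CPM in the PRMT5 overexpression library and 240.5 CPM in the control, and PFKP at 217 CPM in each. PFKM was at 128 CPM with PRMT5 overexpression and 129.5 CPM in the control, and all 3 intervals held 0. The signs of HK1, PFKM, PFKP and the brain-type aldolase gene ALDOC changed with the scaling method, so no direction is given for them.

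PFKFB4 and PFKFB3 encode bifunctional enzymes that make and break the allosteric activator of phosphofructokinase. PFKFB4, at chr3:48517684-48562015, was at 110.3 CPM in the PRMT5 overexpression library, against 146 CPM in the vector control, a log2 ratio of -0.40 (interval -0.49 to -0.32). PFKFB3 was at 49.5 CPM with PRMT5 overexpression and 60.7 CPM in the control, with a log2 ratio of -0.30. Both are known hypoxia-induced genes, and they had the lowest log2 ratios of the upper part. GPI, the isomerase that follows hexokinase, was at 937 CPM with PRMT5 overexpression and 1088 CPM in the control, a log2 ratio of -0.22 (interval -0.25 to -0.18). ALDOA, the aldolase gene with the higher level per kilobase here, was at 985 CPM with PRMT5 overexpression and 1035 CPM in the control, a log2 ratio of -0.07. The isomerase gene TPI1 was at 1014 CPM with PRMT5 overexpression and 1037 CPM in the control, a log2 ratio of -0.03. ALDOC was at 199 CPM with PRMT5 overexpression and 201 CPM in the control. The interval of TPI1 ended just below 0 and held 0 once its reads were summed with those of the pseudogene TPI1P1, which holds 50-base stretches of it.

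In the lower part, 5 of 6 genes lay close together, between log2 ratios of -0.13 and -0.08. GAPDH was the most abundant of the 44 genes per kilobase of exon and is a common reference in expression assays. It was at 7164 CPM in the PRMT5 overexpression library, against 7577 CPM in the vector control, a log2 ratio of -0.08. AC006064.4 shares 422 exon bases with GAPDH and held 6114 reads with PRMT5 overexpression and 3412 in the control. The log2 ratio of their sum was -0.06. PGK1, the first kinase to return ATP, was at 982 CPM with PRMT5 overexpression and 1055 CPM in the control, a log2 ratio of -0.10. ENO1, the main enolase gene, was at 2595 CPM with PRMT5 overexpression and 2845 CPM in the control, with a log2 ratio of -0.13. The pyruvate kinase gene PKM was at 1449 CPM with PRMT5 overexpression and 1572 CPM in the control, a log2 ratio of -0.12. The mutase gene PGAM1 was at 474 CPM with PRMT5 overexpression and 509 CPM in the control, a log2 ratio of -0.10. That value is uncertain, because 43.0% of the 50-base stretches of its longest transcript occur in other genes, and its log2 ratio was -0.01 once those genes were added.

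ENO2 departed from its neighbours in the pathway. This gene, best known as the neuronal enolase and also induced by hypoxia, lies at chr12:6913745-6923698. It was at 178 CPM in the PRMT5 overexpression library, against 141 CPM in the vector control, from 3510 reads with PRMT5 overexpression and 2008 in the control. Its log2 ratio was 0.34 (interval 0.26 to 0.42), and it shares exon bases with no other gene that had 10 or more reads.

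Of the 3 genes that set the fate of pyruvate, both lactate dehydrogenase genes had log2 ratios above 0, where 50.4% of all genes did. LDHB, whose subunit favours the oxidation of lactate, lies at chr12:21635342-21757857 and was at 731 CPM in the PRMT5 overexpression library, against 548 CPM in the vector control. This was the highest log2 ratio of the 44 genes, 0.41 (interval 0.38 to 0.45), from 14403 reads with PRMT5 overexpression and 7815 in the control. LDHA, whose subunit favours lactate production and which hypoxia induces, was at 854 CPM with PRMT5 overexpression and 820.0 CPM in the control, a log2 ratio of 0.06 (interval 0.02 to 0.09). Scaled by total counts, its interval was -0.00 to 0.06 and held 0. PDK1, the kinase that switches off pyruvate dehydrogenase, was at 95.3 CPM in the PRMT5 overexpression library, against 111 CPM in the vector control, a log2 ratio of -0.23 (interval -0.32 to -0.13).

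The remaining 13 genes are known for their induction by hypoxia and are not enzymes of glycolysis. All 13 had log2 ratios below 0, with a median of -0.28 and a range of -0.87 to -0.07, where 49.6% of all genes were below 0. In 11 of them the interval lay wholly below 0, against 14.3% of all genes. By 1.2-fold or more, 7 of the 13 were lower, against 15.4% of all genes. Of the 10 that averaged at least 1000 reads, 10 were below 0, 8 had an interval wholly below 0 and 4 were lower by 1.2-fold or more. Among protein-coding genes at that depth, the shares were 47.5%, 22.6% and 4.85%. Of the 11 genes lower by 1.2-fold or more, 7 belong to this set and EGLN3, PFKFB3, PFKFB4 and SLC2A3 are the others. Summed, the 13 genes stood at 4770.2 CPM with PRMT5 overexpression and 5874 CPM in the control, a log2 ratio of -0.30. Most of these reads came from NDRG1, and without it the sums were 1630.1 CPM with PRMT5 overexpression and 1919 CPM in the control and the log2 ratio was -0.24.

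CA12 and CA9 encode membrane carbonic anhydrases that buffer the acid that glycolytic cells release. CA12, at chr15:63321378-63382161, was at 36.8 CPM in the PRMT5 overexpression library, against 67.5 CPM in the vector control. It was the only one of the 44 genes with fewer raw reads in the deeper library, 726 with PRMT5 overexpression and 962 in the control, and its log2 ratio was -0.87 (interval -1.01 to -0.73). CA9 was at 26.3 CPM with PRMT5 overexpression and 36.0 CPM in the control, a log2 ratio of -0.46 (interval -0.63 to -0.28). ARHGEF39 shares 643 exon bases with CA9 and held 514 reads with PRMT5 overexpression and 365 in the control. The sum of CA9 and ARHGEF39 had a log2 ratio of -0.24. ANKRD37, a small ankyrin repeat gene, was at 17.96 CPM with PRMT5 overexpression and 24.7 CPM in the control, a log2 ratio of -0.46. It shares 909 exon bases with UFSP2, and their sum had a log2 ratio of -0.21. Most reads of that sum were those of UFSP2, 569 with PRMT5 overexpression and 422 in the control, against 354 and 352 for ANKRD37. The summed value therefore does not describe ANKRD37 itself. CA12 shares exon bases with no gene that had 10 or more reads.

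NDRG1, a stress-induced gene that marks differentiation and hypoxia in epithelia, held the second most reads of the 44 genes. It was at 3140.1 CPM in the PRMT5 overexpression library, against 3955 CPM in the vector control, from 61900 reads with PRMT5 overexpression and 56393 in the control, and its log2 ratio of -0.33 came with a narrow interval, -0.35 to -0.32. BNIP3 and BNIP3L, receptors that direct mitochondria to autophagy, were both lower in the PRMT5 overexpression library. BNIP3 was at 299.5 CPM there and 357 CPM in the control, a log2 ratio of -0.25. BNIP3L was at 135 CPM with PRMT5 overexpression and 168 CPM in the control, a log2 ratio of -0.31. VEGFA, the main angiogenic growth factor, was at 212 CPM with PRMT5 overexpression and 258 CPM in the control, a log2 ratio of -0.28 (interval -0.34 to -0.21). MXI1, a bHLH repressor that opposes MYC, was at 82.0 CPM with PRMT5 overexpression and 107 CPM in the control, a log2 ratio of -0.39 (interval -0.49 to -0.29).

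The other 5 genes of this set differed less. P4HA1 and P4HA2, subunits of the collagen prolyl hydroxylase, had log2 ratios of -0.20 and -0.18. P4HA1 was at 205 CPM in the PRMT5 overexpression library and 235 CPM in the control, and P4HA2 at 99.8 CPM with PRMT5 overexpression and 113 CPM in the control. ERO1A, the oxidase that drives disulfide formation in the endoplasmic reticulum, was at 288 CPM with PRMT5 overexpression and 312 CPM in the control, a log2 ratio of -0.12. The histone demethylase gene KDM3A was at 167 CPM with PRMT5 overexpression and 175 CPM in the control. ADM, which encodes the vasodilator adrenomedullin, was at 61.2 CPM with PRMT5 overexpression and 66.3 CPM in the control. For KDM3A and ADM the interval held 0.

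**Figure D2:**
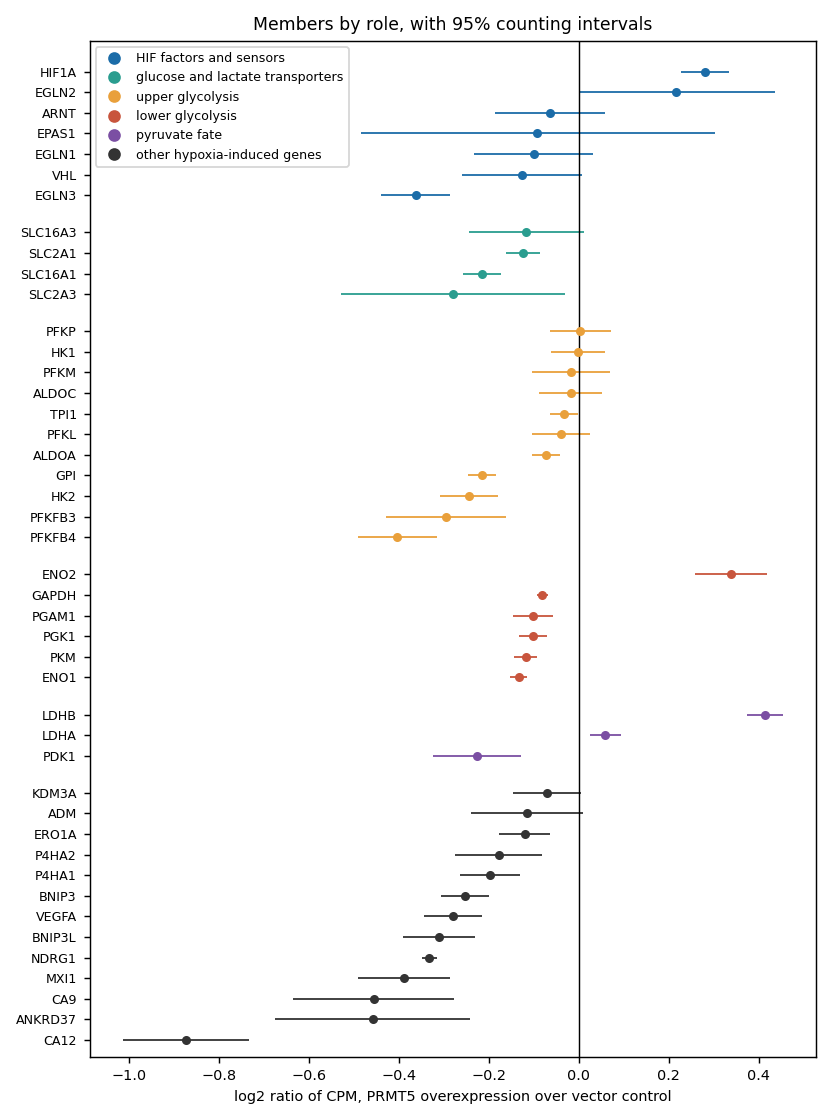
Log2 ratio of CPM (PRMT5 overexpression over vector control) of the 44 genes, grouped by role, with 95% counting intervals as bars. The 13 other hypoxia-induced genes all lie left of 0, between -0.87 and -0.07, whereas HIF1A, EGLN2, ENO2, LDHA and LDHB lie right of 0 with intervals that do not hold it under this scaling.

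The hypoxia response element, the site that the hypoxia-inducible factors bind, has ACGTG or GCGTG as its core. Promoters were taken from RefSeq (GRCh38.p14) as the 250 bases before each annotated start and searched for either core on both strands. The first of these cores overlaps the E-box CACGTG, which MYC family factors bind. Promoters were found for 38 of the 44 genes, 69 in all, and 41 of the 69, or 59.4%, held a core, against 54.6% of 15369 promoters of protein-coding genes past the read minimum. Some genes have up to 7 listed starts, and counted per gene 31 of 38, or 81.6%, held a core in at least 1 promoter, against 64.4% of 10545 protein-coding genes. For the 13 other hypoxia-induced genes it was 11 of 13 promoters of 10 genes. The promoters of the genes with the lowest and the highest log2 ratios, among those with a single listed start, are shown to let the sites be seen beside the values. They were chosen after the values were seen. Capitals mark the core on either strand, and each is written 5′ to 3′ in the direction of the gene, up to the last base before the start.
CA12: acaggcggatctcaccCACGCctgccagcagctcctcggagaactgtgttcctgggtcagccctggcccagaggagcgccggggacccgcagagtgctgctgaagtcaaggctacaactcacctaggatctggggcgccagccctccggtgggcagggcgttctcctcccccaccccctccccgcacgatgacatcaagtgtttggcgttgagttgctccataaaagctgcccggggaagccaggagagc
ANKRD37: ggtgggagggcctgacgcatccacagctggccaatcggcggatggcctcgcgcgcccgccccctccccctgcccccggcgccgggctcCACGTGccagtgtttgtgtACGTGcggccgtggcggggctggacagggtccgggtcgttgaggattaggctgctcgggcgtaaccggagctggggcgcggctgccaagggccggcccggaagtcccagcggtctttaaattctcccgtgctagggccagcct
CA9: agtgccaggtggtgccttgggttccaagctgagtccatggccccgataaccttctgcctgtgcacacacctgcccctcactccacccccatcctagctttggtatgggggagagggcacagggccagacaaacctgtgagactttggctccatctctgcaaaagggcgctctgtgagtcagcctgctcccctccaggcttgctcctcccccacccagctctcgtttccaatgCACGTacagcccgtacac
ENO2: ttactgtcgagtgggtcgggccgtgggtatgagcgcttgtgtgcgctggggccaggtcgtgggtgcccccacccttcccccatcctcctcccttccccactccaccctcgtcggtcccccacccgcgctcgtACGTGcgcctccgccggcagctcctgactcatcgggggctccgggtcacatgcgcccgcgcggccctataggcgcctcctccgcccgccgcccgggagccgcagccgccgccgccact
LDHB: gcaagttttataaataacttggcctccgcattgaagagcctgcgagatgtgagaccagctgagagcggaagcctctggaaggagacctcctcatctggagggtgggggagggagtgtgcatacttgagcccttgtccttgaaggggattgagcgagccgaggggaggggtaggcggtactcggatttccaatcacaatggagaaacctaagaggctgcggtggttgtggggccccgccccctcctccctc

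The windows are chr15:63381847-63382096 on the minus strand for CA12, chr4:185396591-185396840 on the plus strand for ANKRD37 and chr9:35673678-35673927 on the plus strand for CA9. Those of ENO2 and LDHB are chr12:6914330-6914579 on the plus strand and chr12:21657843-21658092 on the minus strand. The CA9 promoter held 1 core, which began 18 bases before the start. ANKRD37 held 3 matches, of which the pair that begins 162 and 161 bases before the start forms a single E-box read on both strands. CA12 held 1 core 234 bases before the start and ENO2 1 core 118 bases before it. The part of these cores in the ratios was not tested. In the LDHB window neither core was found, which says only that these letters are not in it.

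Related members of a family can be compared within a library, where the ratio of their reads does not depend on scaling. Of 15 such pairs, chosen after the values were seen, 6 had a ratio that differed between the libraries by more than counting error. This was judged by a 95% Woolf interval that excluded 0. The share among pairs drawn from all genes was not calculated. Of single protein-coding genes that averaged at least 1000 reads, 22.6% had a counting interval wholly below 0 and 26.5% wholly above it. The EGLN2 and EGLN3 pairs share EGLN1. Per kilobase of merged exon in GENCODE release 29, LDHB was at 1.78 times the level of LDHA in the PRMT5 overexpression library, against 1.39 times in the vector control. By the authors' length-scaled values (FPKM), LDHB was at 166 and LDHA at 52.8 with PRMT5 overexpression, against 127 and 51.7 in the control. The level of a gene against another thus depends on the length used, whereas the log2 change of their ratio does not. The log2 change of the LDHB to LDHA ratio was 0.36 (interval 0.30 to 0.41). ENO2 made up 7.80% of the per-kilobase level of the ENO2 and ENO1 pair with PRMT5 overexpression, against 5.75% in the control, and the log2 change of their ratio was 0.47.

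The ratios of HK2 to HK1 and of EGLN3 to EGLN1 had the opposite sign. Hypoxia is known to induce HK2 and EGLN3, but also ENO2, whose ratio to ENO1 had a log2 change of 0.47. HK2 made up 44.5% of the per-kilobase level of HK2 and HK1 in the PRMT5 overexpression library, against 48.7% in the vector control, a log2 change of -0.24 (interval -0.33 to -0.16). By FPKM, HK2 was instead above HK1, at 33.1 and 30.2 with PRMT5 overexpression and 39.9 and 30.8 in the control. The EGLN3 to EGLN1 ratio, per kilobase, was 2.68 with PRMT5 overexpression and 3.21 in the control, a log2 change of -0.26. CA12 relative to CA9 had a log2 change of -0.42, which was -0.64 (interval -0.83 to -0.45) once CA9 was summed with ARHGEF39. ARHGEF39 held 514 reads with PRMT5 overexpression and 365 in the control, against 518 and 514 for CA9. The summed value therefore does not describe CA9 alone. EGLN2 relative to EGLN1 had a log2 change of 0.32 (interval 0.07 to 0.57). Of the other 9 pairs, the log2 change for PFKP to PFKL was 0.04 (interval -0.05 to 0.13), and for BNIP3L to BNIP3 it was -0.06 (interval -0.15 to 0.04). Once each gene was summed with the genes that share its exons or sequence, the interval for SLC16A3 to SLC16A1 also excluded 0, at a log2 change of 0.21. Most reads of that SLC16A3 sum were those of CSNK1D, so the value does not describe SLC16A3 itself.

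**Figure D3:**
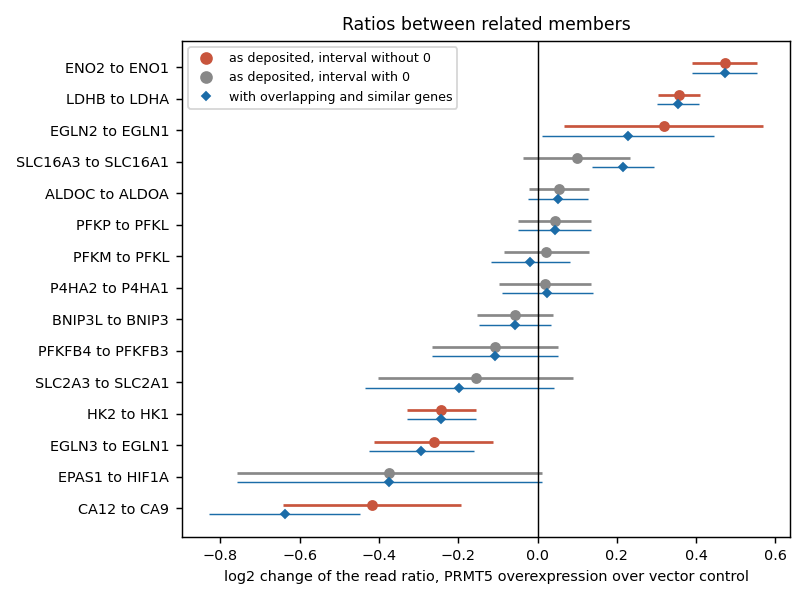
Log2 change of the read ratio between related genes, PRMT5 overexpression over vector control, with 95% Woolf intervals as bars. Circles use the deposited reads, red where the interval excludes 0 and grey where it does not, and blue diamonds use reads summed with genes that share exon bases or sequence. ENO2 to ENO1 and LDHB to LDHA are highest at 0.47 and 0.36, and CA12 to CA9 is lowest at -0.42.

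A second background was drawn from well-read genes, the 4003 protein-coding ones that averaged at least 1000 reads. Of the 35 members at that depth, 30 were below 0 and 5 above, with a median of -0.12. Of the 4003 genes, 47.5% were below 0 and 52.5% above, with a median of 0.01. By 1.5-fold or more, 0 of these 35 members were lower and 0 were higher, where 1.2% and 1.37% of the 4003 genes were. At 1.2-fold, 6 of the 35 were lower and 3 were higher, where 4.85% and 6.22% of the 4003 genes were. The interval lay wholly below 0 in 22 of the 35 and wholly above 0 in 4, against 22.6% and 26.5%. Transcript length moved with the ratio in the background. The 4003 genes, split into 3 equal parts by merged exon length, had medians of 0.05 in the shortest, 0.00 in the middle and -0.02 in the longest part. The members in these parts, 10, 16 and 9 genes, had medians of -0.08, -0.12 and -0.18, each below that of the background.

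**Figure D4:**
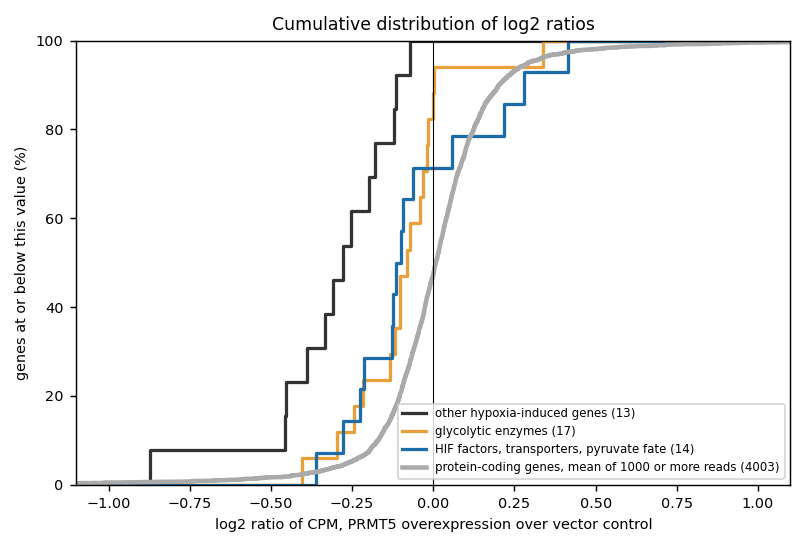
Cumulative percent of genes at or below each log2 ratio of CPM, PRMT5 overexpression over vector control, shown between -1.1 and 1.1. Curves are drawn for the 13 other hypoxia-induced genes, with a median of -0.28, the 17 glycolytic enzymes and regulators, with a median of -0.08, the 14 remaining members and the 4003 well-read protein-coding genes, with a median of 0.01.

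A further 6 lists of 109 entries for neighbouring pathways, all found in the table, show which other steps of glucose metabolism shared these values. The lists were chosen with earlier results of these data known, so they are not an independent check of the 44 genes. The hypoxia-induced list held 36 known targets outside the 44 genes, all past the read minimum. Of these, 27 had a log2 ratio below 0, against 49.6% of all genes. The interval lay wholly below 0 in 17 and wholly above it in 2, where 14.3% of all genes fell on each side. Their median was -0.15. By 1.2-fold or more, 7 were lower and 1 was higher, against 15.4% and 17.2% of all genes. Of the 17 targets that averaged at least 1000 reads, 12 were below 0, with a median of -0.06, against 47.5% of well-read genes. The interval lay wholly below 0 in 9 of these 17 and wholly above it in 2, against 22.6% and 26.5%. By 1.2-fold or more, 1 was lower and 1 was higher, against 4.85% and 6.22%. MAFF, a small MAF factor, was at 4.87 CPM in the PRMT5 overexpression library, against 14.7 CPM in the vector control, a log2 ratio of -1.58. DDIT4, an inhibitor of mTORC1 and the most read gene of this list, was at 1498 CPM with PRMT5 overexpression and 1547 CPM in the control, a log2 ratio of -0.05, and the cytokine gene MIF had a log2 ratio of 0.03. The collagen lysyl hydroxylase gene PLOD1 and the lipase inhibitor gene ANGPTL4, chosen after their values were seen, had log2 ratios of -0.31 and -0.39.

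HILPDA had the highest log2 ratio of that list. This hypoxia-induced gene, whose protein sits on lipid droplets and restrains their breakdown, was at 78.3 CPM in the PRMT5 overexpression library, against 40.1 CPM in the vector control, from 1544 reads with PRMT5 overexpression and 572 in the control. Its log2 ratio was 0.96 (interval 0.83 to 1.11), larger in size than that of any of the 44 genes. The other gene of the list with an interval wholly above 0 was TFRC, the transferrin receptor gene, chosen after its values were seen, with a log2 ratio of 0.11 (interval 0.05 to 0.17).

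The pentose phosphate pathway, which draws on the same glucose phosphate to make NADPH and ribose, was measured by 7 genes with a median log2 ratio of 0.16. Of these 7, 5 had a log2 ratio above 0, where 50.4% of all genes and 52.5% of well-read ones did. Each of the 5 had an interval wholly above 0, against 14.3% of all genes. All 4 well-read genes of the list were among them, where 26.5% of well-read genes had such an interval. TKT, the transketolase gene, was at 1220.1 CPM with PRMT5 overexpression and 1151 CPM in the control, a log2 ratio of 0.08. TALDO1, chosen after its values were seen, had the highest ratio of the list, 0.25.

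Of 12 genes of pyruvate entry into mitochondria and its dehydrogenase complex, 7 were below 0, or 58.3%, against 49.6% of all genes. Their median was -0.11. The interval lay wholly below 0 in 4 and wholly above it in 0, against 14.3% of all genes on each side. The summed log2 ratio was -0.18. PDP1, the phosphatase that reactivates pyruvate dehydrogenase and so opposes PDK1, was at 152 CPM in the PRMT5 overexpression library, against 229 CPM in the vector control, a log2 ratio of -0.59 (interval -0.66 to -0.52). PDHA1, a subunit of the complex itself, had a log2 ratio of 0.06 (interval -0.04 to 0.16), which held 0. The other 3 genes with intervals wholly below 0, named after their values were seen, were the complex subunit genes DLAT, at a log2 ratio of -0.36, and DLD, at -0.16, and the pyruvate carrier gene MPC2, at -0.20. The regulators of the hypoxia-inducible factors outside the 44 genes had a median of 0.02. Of these, 7 of 15, or 46.7%, were below 0, against 49.6% of all genes. There were 3 intervals wholly on each side of 0, against 14.3% of all genes on each side. The list included the ubiquitin-conjugating enzyme gene UBE2S and the lectin gene OS9, with log2 ratios of 0.24 and -0.04. The extremes of the list, named after their values were seen, were ARNT2, a relative of ARNT with only 18 reads with PRMT5 overexpression and 32 in the control, at a log2 ratio of -1.24 (interval -2.22 to -0.42), and ELOB, a subunit of the VHL ligase, at 0.27 (interval 0.17 to 0.37). Genes of gluconeogenesis and glycogen had a median of -0.00, and the glycogen phosphorylase genes PYGB and PYGL had log2 ratios of 0.05 and 0.00. Of its 9 genes past the read minimum, 2 were lower by 1.2-fold or more, against 15.4% of all genes. Both, named after their values were seen, had intervals wholly below 0. PPP1R3C, which targets a phosphatase to glycogen, had a log2 ratio of -0.44 (interval -0.57 to -0.31), and PCK2, the mitochondrial form of the carboxykinase gene, one of -0.27 (interval -0.34 to -0.20). Other glycolytic isoenzymes and carriers had a median of 0.02 over 16 genes. Among these, BSG, the chaperone of the lactate carriers, had a log2 ratio of 0.09 and PFKFB2 one of -0.05. In this list 6 genes were below 0 and 10 above, with 1 interval wholly below 0 and 3 wholly above it. Of all genes, 49.6% were below 0 and 50.4% above, with 14.3% of intervals wholly on each side. The widest departures, named after their values were seen, were those of 2 hexose kinase genes. ADPGK, an ADP-dependent glucokinase gene, was at 64.0 CPM with PRMT5 overexpression and 45.3 CPM in the control, a log2 ratio of 0.50 (interval 0.36 to 0.64), above that of any of the 44 genes. HKDC1 had only 21 reads with PRMT5 overexpression and 3 in the control, a log2 ratio of 2.06 (interval 0.60 to 4.73).

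**Figure D5:**
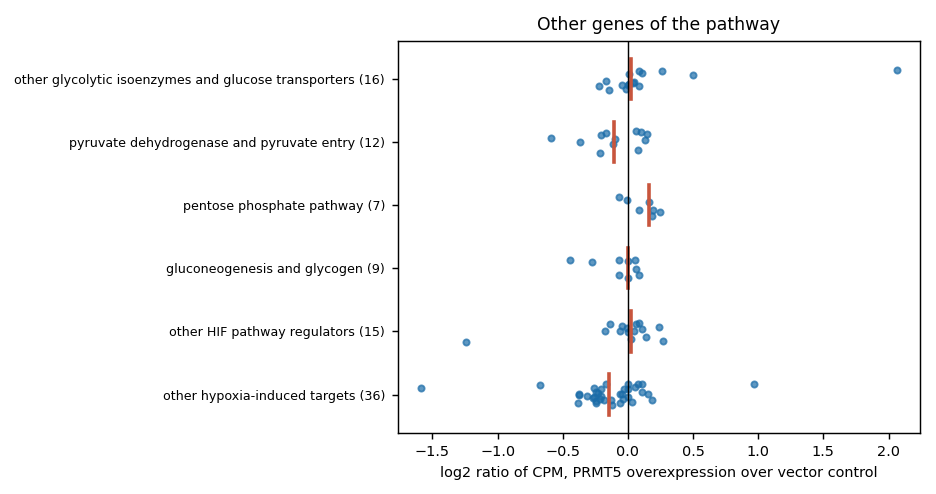
Log2 ratio of CPM, PRMT5 overexpression over vector control, of the genes of 6 neighbouring pathway lists past the read minimum, 1 point per gene, with the number of genes in brackets and the median as a red bar. The other hypoxia-induced targets have the lowest median, -0.15, and the pentose phosphate genes the highest, 0.16.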

How the data were processed

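Polyadenylated RNA of Tu212 cells was sequenced in 1 library for each genotype of the labels. Per the submitters' processing notes, the tools were StringTie 1.3.4b, HISAT2 2.1.0, edgeR and CASAVA 1.8 and the builds hg38 and GRCh38, with no role stated. The strand setting and annotation release are not given in the sources used here. The table's raw counts per gene were used as deposited by the authors, and 0 per-sample columns were left unused. The authors' deposited FPKM matched, within 1%, a single fixed length in both libraries for 100% of 11478 genes. This length was 0.959 to 3.70 times the merged exon length for the 44 genes, so levels between genes were compared per kilobase of merged exon in GENCODE release 29.

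The 44 genes, the pathway lists and the pairs were chosen with earlier results of these data known. Other genes were named by a rule on size and abundance, and those named outside it are marked. 1 gene that the rule names is not reported here. Counts of 1 symbol were summed and scaled by TMM (edgeR 4.0.16, R 4.3.3; factors 0.990 with PRMT5 overexpression and 1.01 in the control), with a prior count of 1. Intervals are Clopper-Pearson at 95%. No p-value is given, since genes are not replicates. The procedure was tested on simulated data. Alternatives were 5 other scalings (among them DESeq2 1.42.0 size factors), prior counts of 0.1 and 5, read minimums, the highest row per symbol, deposited FPKM with a pseudocount of 1, thresholds, and sums with genes sharing exon bases (both strands) or 10 or more of the 50-base stretches tested every 10 bases. Python 3.11.15, scipy 1.17.1 and matplotlib 3.10.9 were used.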

Additional observations from a re-analysis of the deposited data

How the results depend on the processing

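The summed log2 ratio of the 44 genes, -0.119, kept its sign under every alternative run for it. It was -0.0968 with DESeq2 median-of-ratios size factors, -0.148 with total counts, -0.105 with upper quartile scaling, -0.110 with protein-coding genes only, -0.113 when summed with exon-sharing genes, -0.139 over the 25 genes that share no exon base, -0.134 without GAPDH and -0.0869 without NDRG1. The scalings shifted the median of all genes by at most 0.03, and the number of the 44 genes below 0 lay between 35 and 39 under them, against 38. Over the same 25 genes, 21 were below 0, against 49.6% of all genes. Of their intervals, 13 lay wholly below 0 and 3 wholly above it, against 14.3% of all genes on each side. These counts are lower than those of the 44 genes by construction, and the shares include genes that share exon bases. With total counts, 3 intervals were wholly above 0 in place of 5, since those of EGLN2 and LDHA came to hold 0, and those of VHL, SLC16A3, PFKL, ADM and KDM3A came to lie wholly below it. The interval of TPI1 held 0 with DESeq2, upper quartile and protein-coding scaling. Genes lower and higher by the threshold were 11 and 3 at 1.2-fold and 0 lower at 2-fold, against 1 and 0 at 1.5-fold. The PRMT5 log2 ratio was 0.931 with deposited FPKM, whose pseudocount draws ratios toward 0. Of 572 recalculated values of single genes, 555 stayed within their counting intervals, 17 moved and 0 changed sign where the interval excluded 0. The sums with sequence-sharing genes, the length split and the sum without NDRG1 in the hypoxia-induced set were chosen after seeing the data. No paired analysis was possible because the groups hold 1 library each. Depth limits EPAS1, EGLN2 and SLC2A3 most.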
